A study of Homo sapiens with 14 samples.

Results

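The genes of the mitochondrial respiratory chain and ATP synthase were examined in the leukaemia cell line MOLM14, which grows on an internally duplicated, active form of the FLT3 kinase, before and during treatment with the kinase inhibitor gilteritinib and in lines with early resistance to it. MOLM14 was derived from a human acute myeloid leukaemia, and gilteritinib blocks FLT3 and AXL. Members were chosen by symbol: protein-coding genes whose names start with NDUFA, NDUFB, NDUFC, NDUFS, NDUFV, UQCR, COX4I, COX5, COX6, COX7, COX8, ATP5F1, ATP5M or ATP5P, together with the SDH genes A to D, CYC1, CYCS and the protein genes of mitochondrial DNA. This gave 112 of the 39293 genes in the table, 99 encoded in the nucleus and 13 in mitochondrial DNA. The rule uses symbols and no expression value, but it was set with earlier results of these data known. A filter on low counts passed 104 of them, 91 nuclear and all 13 mitochondrial, out of 15756 genes that were tested. The 8 untested members were COX4I2, COX6A2, COX7A1, COX7B2, COX8C, UQCRHL, ATP5MGL and the read-through NDUFC2-KCTD14.

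RNA-seq libraries were compared in 4 arms. The parental arm had 3 libraries of untreated MOLM14 cells. The acute arm had 3 libraries of parental cells given 100 nM gilteritinib for 48 hours, 1 with the drug alone (acute replicate 1), 1 with FGF2 at 10 ng/mL (replicate 2) and 1 with FLT3 ligand, FL, at 10 ng/mL (replicate 3). The other arms were early gilteritinib-resistant lines grown with 10 ng/mL of FGF2 (4 flasks) or of FL (4 flasks), each given 100 nM gilteritinib for 48 hours. All arms therefore share 1 cell line and its FLT3 duplication, every treated arm had the drug when harvested, and only parental cells had neither drug nor ligand. The labels name a separate flask for each early library, and the acute libraries differ in ligand, but nothing states that the flasks arose independently or that parental replicates are distinct cultures, so part of the spread behind the p-values may be technical. "Early" below stands for both resistant arms averaged with equal weight.

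The respiratory chain sits in the inner membrane of the mitochondrion. Complex I takes electrons from NADH and complex II from succinate, complex III passes them to cytochrome c, complex IV passes them to oxygen, and complex V, the ATP synthase, uses the resulting proton gradient to make ATP. Mitochondrial DNA encodes a few core subunits of every complex except complex II, and all other subunits are nuclear genes whose products are imported. In acute myeloid leukaemia, oxidative phosphorylation is known as a main energy source of blasts and has been linked to survival under therapy.

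The 14 libraries held 25723575 to 33075041 counts. Expression is given as CPM, the count scaled to a common library size, and differences as log2 fold changes ± standard error. The 13 mitochondrial mRNAs made up 3.52% to 5.31% of all counts and the nuclear members 0.862% to 1.24%. Nuclear members were expressed above the typical gene, with a median of their mean CPM of 87.0 against 19.0 over all genes tested. As a check of the cell type, the summed CPM of 10 myeloid genes ran from 890 to 2264, while 5 erythroid genes summed to at most 0.231 CPM and 5 B cell genes to at most 1.16 CPM. The sum of 5 epithelial genes, mostly KRT8 and KRT18 with KRT19 at 0 and EPCAM at most at 0.148, was 12.9 to 15.1 CPM in parental, 15.8 to 17.1 CPM in acute, 20.6 to 26.9 CPM in FGF2 early and 18.9 to 38.03 CPM in FL early libraries, and its part in the differences below was not tested. The T cell sum of 137 to 191 CPM came from CD4, which monocytic cells also express, since the other T cell genes did not pass the filter. CD14, the defining monocyte marker, stayed between 0 and 0.820 CPM. Some libraries stood apart from others of their arm: the chi-square per gene between libraries was 41.6 to 56.0 for pairs with FL early replicate 1 or 4, against 15.5 between FL early replicates 2 and 3, and 36.04 to 54.5 for pairs with acute replicate 1, against 14.97 between acute replicates 2 and 3.

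Most nuclear respiratory genes were lower in cells given gilteritinib acutely than in untreated cells. Of the 91 tested, 66 were lower and 3 higher in acute than in parental libraries (edgeR's quasi-likelihood test, Benjamini-Hochberg adjusted over all genes), and 17 were lower by at least 2-fold. Over all genes tested, 30.3% were called lower and 32.3% higher in this comparison. The median log2 fold change of the nuclear members was −0.55, against 0.07 for all genes. It was −0.65 when the acute library without ligand stood for the arm and −0.48 without that library. In bulk RNA, fewer cells of a type and less RNA per cell cannot be told apart.

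The decrease reached every complex, to different depths. The 8 NDUFAF genes, which assemble complex I and are not part of the finished enzyme, were all lower, with a median of −0.73. All 4 SDH genes of complex II were lower, with a median of −0.76. In complex III, 7 of 9 nuclear members were lower (median −0.57), in complex IV 10 of 14 (median −0.51), and in complex V 13 of 18 with 1 higher (median −0.44). Nuclear subunits of complex I had the smallest median, −0.35, with 23 of 37 lower and 2 higher. Summed over the members, acute CPM was 53.7 ± 4.83% of the parental mean for complex I assembly factors (SD, n = 3), 61.2 ± 4.61% for complex II, 65.4 ± 6.61% for complex V, 72.0 ± 5.38% for complex III, 77.9 ± 5.83% for complex I and 79.6 ± 6.33% for complex IV. This order was the same in each of the 3 acute libraries, although the SD ranges of neighbouring groups overlapped, and the differences between complexes were not tested.

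**Figure D1:**
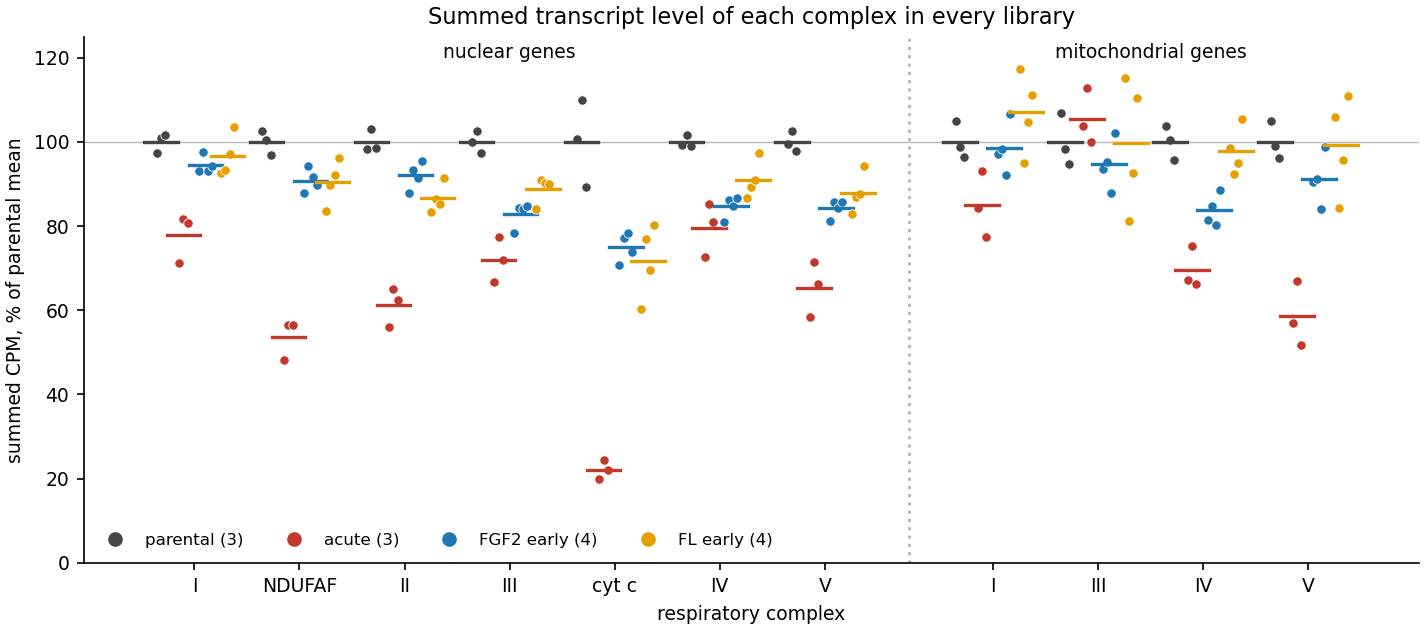
Summed CPM of the members of each complex and genome, as a percent of the parental mean, for each library (points) and the mean of each arm (bars). The acute mean is the lowest of the arms in every nuclear group, and cytochrome c is lowest of all at 22.2% of parental, while mitochondrial complex III, which is MT-CYB alone, stands at 105.5%.

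Cytochrome c and NDUFAF4 had the largest nuclear decreases. CYCS encodes the small carrier that moves electrons from complex III to complex IV and that triggers apoptosis when released. Its level was 171, 187 and 152 CPM in parental libraries and 33.8, 41.7 and 37.7 CPM in acute libraries. Early lines fell between, at 121, 131, 134 and 126 CPM in FGF2 early and 103, 131, 119 and 137 CPM in FL early flasks. Every acute library lay below every early one, and every early library below every parental one. The log2 fold change was −2.17 ± 0.11 for acute against parental (adjusted p = 1.39e-09) and −0.45 ± 0.09 for early against parental (adjusted p = 0.00231).

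NDUFAF4, a factor needed to build the arm of complex I that lies in the matrix, followed the same order. It was picked after its values were seen. Parental libraries held 46.9, 47.2 and 44.2 CPM and acute libraries 9.84, 10.2 and 10.9 CPM. FGF2 early flasks held 27.01, 30.4, 27.1 and 28.9 CPM and FL early flasks 28.3, 35.2, 32.1 and 31.03 CPM. The 3 levels did not overlap, with log2 fold changes of −2.16 ± 0.09 in acute (adjusted p = 2.01e-10) and −0.62 ± 0.07 in early libraries (adjusted p = 5.30e-05) against parental. The log2 fold changes of the other NDUFAF genes in acute against parental libraries ranged from −1.01 for NDUFAF2 to −0.38 for NDUFAF8.

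The rotor ring of ATP synthase is built from subunit c, and ATP5MC1, ATP5MC2 and ATP5MC3 are separate genes that encode the same mature subunit behind different import signals. ATP5MC1 stood at 148, 155 and 147 CPM in parental and 25.7, 41.03 and 39.6 CPM in acute libraries, and ATP5MC3 at 225, 240.3 and 236 and 86.8, 111 and 97.6 CPM. ATP5MC2 stood at 363, 375 and 353 and 297, 379 and 357 CPM, so for this gene the arms overlapped, with the drug-alone library the lowest. The log2 fold changes were −2.08 ± 0.14, −1.25 ± 0.09 and −0.08 ± 0.08, with adjusted p = 1.14e-08, 5.09e-08 and 0.42. The ATP5MC2 value depended on the setting: it was −0.32 (adjusted p = 0.00808) with the drug-alone library as the acute arm, −0.27 (adjusted p = 0.00821) with offsets for transcript GC content, and 0.02 (adjusted p = 0.854) without the drug-alone library. Per transcript length, parental levels were 247 CPM per kb for ATP5MC1, 278 for ATP5MC3 and 414 for ATP5MC2. Because these genes share much of their coding sequence, reads could be assigned to the wrong copy.

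Promoters of these 4 genes are shown because CYCS, NDUFAF4 and ATP5MC1 had the 3 deepest nuclear decreases while ATP5MC2, a gene for the same subunit as ATP5MC1, did not pass the test over all libraries. Each is the 250 bases before the transcription start in RefSeq (GRCh38.p14), in the direction of the gene. Capitals mark matches on either strand to GCGCANGC, the motif of nuclear respiratory factor 1, or to CCGGAAG, the motif of ETS factors such as GABP. The windows are chr7:25125261-25125510 (minus strand) for CYCS, chr6:96897892-96898141 (minus) for NDUFAF4, chr17:48892537-48892786 (plus) for ATP5MC1 and chr12:53676084-53676333 (minus) for ATP5MC2.
CYCS: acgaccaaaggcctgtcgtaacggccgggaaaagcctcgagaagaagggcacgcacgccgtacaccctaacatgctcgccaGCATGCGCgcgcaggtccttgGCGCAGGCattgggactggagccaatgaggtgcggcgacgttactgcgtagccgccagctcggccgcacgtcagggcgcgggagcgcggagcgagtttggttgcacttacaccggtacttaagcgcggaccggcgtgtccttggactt
NDUFAF4: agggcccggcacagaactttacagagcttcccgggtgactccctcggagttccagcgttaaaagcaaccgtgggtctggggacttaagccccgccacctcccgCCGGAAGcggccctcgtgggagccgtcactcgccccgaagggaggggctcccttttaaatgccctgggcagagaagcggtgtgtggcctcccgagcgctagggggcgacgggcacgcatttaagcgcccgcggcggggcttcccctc
ATP5MC1: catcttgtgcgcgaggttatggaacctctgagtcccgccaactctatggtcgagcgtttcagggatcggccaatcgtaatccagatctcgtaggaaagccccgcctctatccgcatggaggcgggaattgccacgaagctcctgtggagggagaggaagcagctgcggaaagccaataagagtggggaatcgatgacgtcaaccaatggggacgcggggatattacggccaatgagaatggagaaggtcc
ATP5MC2: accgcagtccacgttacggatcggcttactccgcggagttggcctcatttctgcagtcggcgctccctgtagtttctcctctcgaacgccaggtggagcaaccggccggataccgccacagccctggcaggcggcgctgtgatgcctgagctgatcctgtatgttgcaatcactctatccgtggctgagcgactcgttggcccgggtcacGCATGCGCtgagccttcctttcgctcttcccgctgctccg
The CYCS window holds 2 GCGCANGC matches, the NDUFAF4 window 1 CCGGAAG match, the ATP5MC2 window 1 GCGCANGC match and the ATP5MC1 window neither.

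Windows of the same length were found for 78 of the 112 members and for 14982 genes in all. GCGCANGC occurred in 30 members (38.5%) and in 15.04% of all windows, and CCGGAAG in 18 members (23.1%) and 12.1% of all windows. The E-box CACGTG, bound by MYC and other factors, occurred in 7 members (8.97%) and 7.84% of all, and AAGATGG, the core of the YY1 motif, in 4 members (5.13%) and 3.34%. Both strands were searched, and matches of CCGGAAG and AAGATGG can overlap. GCGCANGC was present in 22 of 53 members that were lower in acute cells and in 7 of 21 tested members that were not. These matches are letters in a window and carry no information on binding.

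Other complex V members were grouped by their place in the enzyme. In the catalytic F1 head, ATP5F1A, ATP5F1B and ATP5F1C were lower. ATP5F1B, the catalytic beta subunit, was the most abundant nuclear member per length and, like ATP5F1A, was picked after its values were seen. It fell from 1517, 1533 and 1493 CPM in parental to 699, 909.6 and 828 CPM in acute libraries (−0.90 ± 0.10, adjusted p = 2.25e-06). All 4 peripheral stalk genes, which hold the head still while the rotor turns, were lower, with a median of −0.65. Among 5 small membrane subunits, 4 were lower, led by ATP5MK, known for linking ATP synthase dimers: it read 130.2, 142 and 120.1 CPM in parental and 36.9, 39.8 and 32.5 CPM in acute libraries (−1.85 ± 0.11, adjusted p = 3.13e-09).

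Complex I was uneven inside. Of its 7 nuclear core subunits, which hold the electron path, 3 were lower and 1 higher, and of 30 accessory subunits 20 were lower and 1 higher. NDUFS1, the largest core subunit and a carrier of iron-sulfur clusters, went from 172, 177 and 165 to 86.6, 77.5 and 71.4 CPM, so that no acute library reached the lowest parental one. Its log2 fold change was −1.13 ± 0.08 (adjusted p = 3.32e-08). The accessory subunits NDUFA9 (−1.19 ± 0.11) and NDUFAB1 (−1.19 ± 0.16), the latter also the acyl carrier protein of mitochondrial fatty acid synthesis, had the largest decreases among its nuclear subunits. Core subunits NDUFS3 (−0.15 ± 0.11), NDUFS8 (−0.26 ± 0.12) and NDUFV1 (0.01 ± 0.09), picked after their values were seen, did not pass the test.

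**Figure D2:**
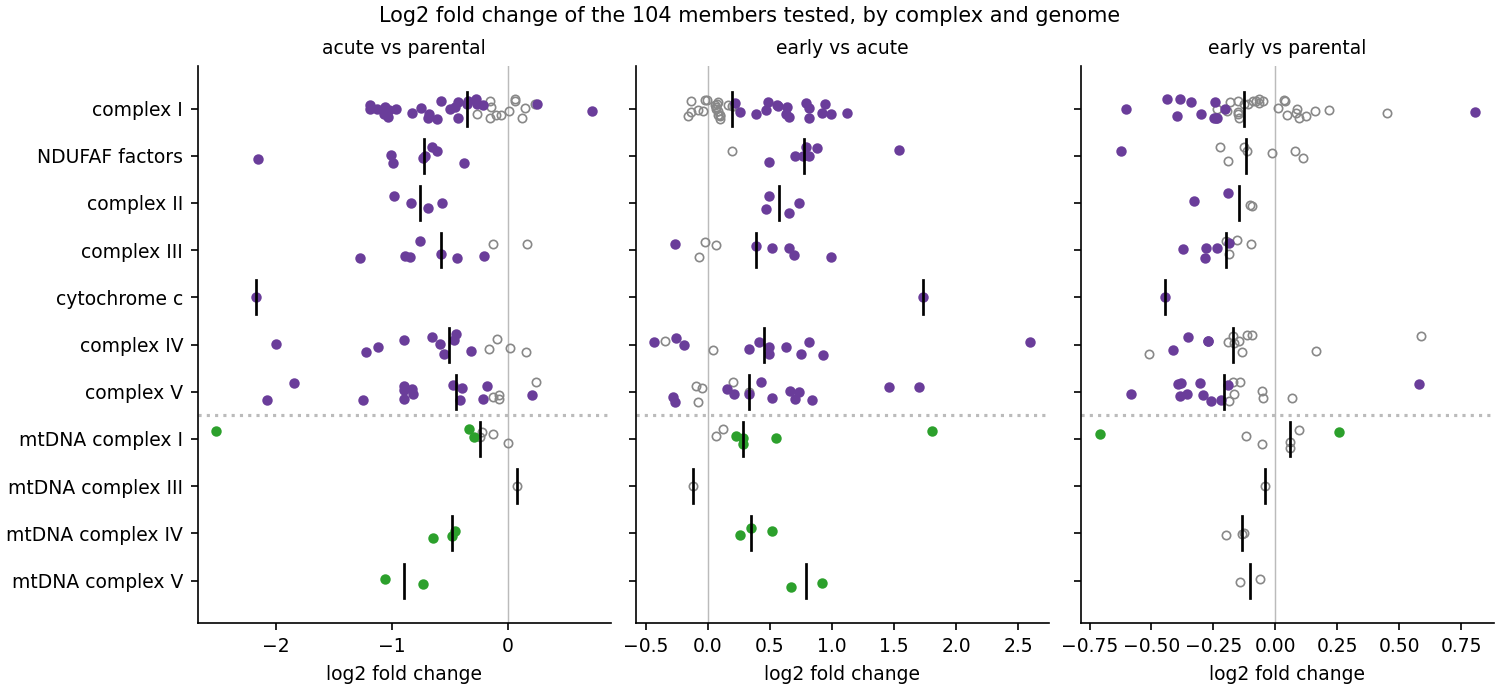
Log2 fold change of each tested member in acute against parental, early against acute and early against parental libraries, by complex and genome. Filled points have an adjusted p under 0.05, open points do not, and black ticks mark medians. Nuclear members lie mostly below 0 in acute against parental and above 0 in early against acute libraries.

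Complex II links the citric acid cycle to the chain. SDHD and SDHC anchor it in the membrane, and SDHB and SDHA carry the electrons. SDHD went from 156, 169 and 150.3 CPM in parental to 79.3, 82.2 and 79.3 CPM in acute libraries (−0.98 ± 0.07, adjusted p = 2.97e-08), and SDHB from 94.3, 101 and 95.9 to 52.9, 56.5 and 53.7 CPM (−0.83 ± 0.08). SDHC changed by −0.69 ± 0.07 and SDHA by −0.56 ± 0.08, and for all 4 genes the parental and acute libraries were apart. SDHA has near-identical pseudogenes: SDHAP1 rose from a mean of 29.2 to 60.4 CPM and SDHAP3 from 6.42 to 20.9 CPM in the same comparison, so the SDHA value is uncertain.

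In complex III, UQCRQ, a small accessory subunit, had the largest decrease (−1.27 ± 0.09, adjusted p = 4.19e-08). It read 93.96, 98.6 and 96.6 CPM in parental and 34.8, 43.1 and 41.7 CPM in acute libraries. The core protein UQCRC1 (−0.89 ± 0.10) and CYC1, the cytochrome c1 subunit that hands electrons to cytochrome c (−0.84 ± 0.09), were lower too. Both had every acute library below every parental one.

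In complex IV, COX6C fell from 158, 172 and 150.2 to 67.7, 74.1 and 63.6 CPM (−1.23 ± 0.09, adjusted p = 2.27e-08). COX7B (−1.12 ± 0.09) and COX7A2 (−0.90 ± 0.08), small subunits of the same enzyme, were also lower. COX4I1, the largest nuclear subunit and the site of inhibition by ATP, behaved differently from these: it read 421, 419 and 416 CPM in parental, 433, 505 and 463 CPM in acute, 313, 333, 329 and 353 CPM in FGF2 early and 339.6, 369.5, 391 and 347 CPM in FL early libraries. All acute libraries were above all parental ones, but the difference did not pass the test (0.16 ± 0.07, adjusted p = 0.0791). It was called without acute replicate 1 (0.21, adjusted p = 0.0247) and with upper quartile scaling (0.26, adjusted p = 0.00423). Early libraries were lower than both acute and parental ones (−0.43 ± 0.06 against acute, −0.27 ± 0.06 against parental, adjusted p = 1.93e-05 and 0.00439). NDUFA4, now assigned to complex IV, was lower in acute libraries (−0.66 ± 0.09). Its paralogue NDUFA4L2, a known target of hypoxia-inducible factor, fell from 5.27, 7.24 and 5.58 to 1.21, 0.859 and 2.46 CPM (−2.003 ± 0.37, adjusted p = 2.87e-04).

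The 3 nuclear members called higher in acute libraries were NDUFS7, NDUFB5 and ATP5F1E, and none of these calls held under every alternative. NDUFB5 (0.25 ± 0.10, adjusted p = 0.0499) lost its call under 11 alternatives, including the removal of any parental library or of acute replicate 1 or 2, with adjusted p between 0.0501 and 0.218 there. ATP5F1E (0.21 ± 0.08, adjusted p = 0.0391) lost it under 8, including the removal of parental replicate 1 or 3 or of acute replicate 1 or 2, with adjusted p between 0.0627 and 0.178. With offsets for GC content both stood higher, NDUFB5 at 0.61 (adjusted p = 3.09e-05) and ATP5F1E at 0.60 (adjusted p = 2.30e-05). NDUFS7 is described with the GC-rich members further on. All 3 were singled out after their values were seen. COX4I1 and UQCRC2 were not called with the main settings, but were called higher in acute libraries under 2 and 3 alternatives.

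**Figure D3:**
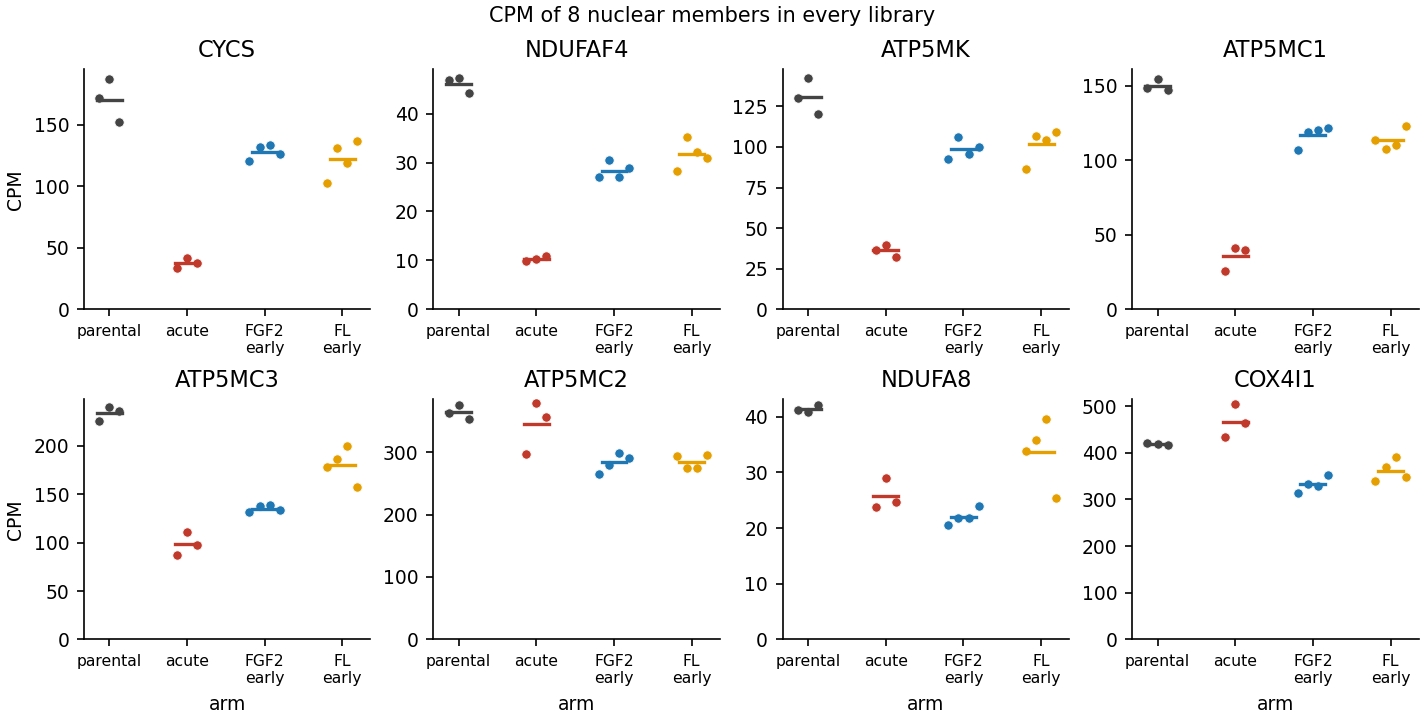
CPM of 8 nuclear members in every library (points), with bars at the mean of each arm. CYCS, NDUFAF4, ATP5MK and ATP5MC1 are lowest in acute and intermediate in early libraries, ATP5MC2 and COX4I1 are lowest in early libraries, and NDUFA8 and ATP5MC3 are lower in FGF2 early than in FL early flasks.

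In the mitochondrial genome the picture was mixed. Of its 13 genes, 8 passed the test in acute against parental libraries, all of them lower (median −0.33). With offsets for GC content 6 were lower, with a median of −0.17. Their summed CPM was 75.6 ± 6.18% of the parental mean (SD, n = 3), beside 70.5 ± 5.96% for the nuclear members. The ratio of mitochondrial to nuclear CPM was 3.81 to 4.14 in parental and 3.86 to 4.53 in acute libraries, so these ranges overlapped. Across all 14 libraries it ran from 3.81 to 4.87.

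Mitochondrial mRNAs are cut from long transcripts of the 2 strands, and all but MT-ND6 come from the same strand. The complex V pair, which share one mRNA, fell furthest on that strand. MT-ATP8 read 621, 599 and 564 CPM in parental and 295, 327 and 235 CPM in acute libraries (−1.06 ± 0.12, adjusted p = 2.01e-06). MT-ATP6 read 3951, 3719.9 and 3626 and 2188, 2596 and 2019 CPM (−0.73 ± 0.11, adjusted p = 5.77e-05). Neither gene's acute libraries reached its parental range.

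All 3 mitochondrially encoded subunits of complex IV were lower. MT-CO3 fell from 7852, 7674 and 7273 to 4537, 5379 and 4659 CPM (−0.65 ± 0.10), MT-CO1 from 13887, 13341 and 12729.9 to 9333, 10223 and 9011 CPM (−0.48 ± 0.07) and MT-CO2 from 5463, 5349.5 and 5086 to 3723, 4161 and 3714 CPM (−0.45 ± 0.09). Their adjusted p-values were 6.33e-05, 5.04e-05 and 4.58e-04. MT-CYB, the only complex III gene of this genome, did not pass the test: its libraries read 2922, 2688 and 2588 CPM in parental and 2836, 3083 and 2731 CPM in acute cells (0.08 ± 0.12, adjusted p = 0.578).

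The complex I genes were mixed. MT-ND1 was at 3687, 3391 and 3328 CPM in parental and 3334, 3828 and 3226 CPM in acute libraries, with overlapping ranges (−0.003 ± 0.08, adjusted p = 0.98). MT-ND2 (−0.22 ± 0.09), MT-ND3 (−0.24 ± 0.11) and MT-ND4L (−0.13 ± 0.11) did not pass the test either. MT-ND2 was called lower under 7 alternatives, at −0.33 (adjusted p = 0.00730) without acute replicate 2, and MT-ND3 under 4, at −0.29 (adjusted p = 0.0464) without acute replicate 1, but with GC offsets they stood at −0.002 and 0.10. MT-ND4 (−0.33 ± 0.11, adjusted p = 0.0136) and MT-ND5 (−0.29 ± 0.10, adjusted p = 0.0257) were called lower. Without acute replicate 3 neither was called (adjusted p = 0.0679 and 0.108), and without parental replicate 1 MT-ND5 was not. Both also lost their calls with upper quartile scaling (0.0747 and 0.145) and with GC offsets (0.198 and 0.229). The lowest adjusted p over all alternatives was 0.00147 for MT-ND4 and 0.00490 for MT-ND5.

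MT-ND6 stood apart from the rest of the mitochondrial genome. It encodes a membrane subunit of complex I and is the only mRNA of its strand. Parental libraries held 268, 276 and 262 CPM and acute libraries 57.1, 43.8 and 40.3 CPM, a log2 fold change of −2.51 ± 0.13 (adjusted p = 7.78e-10). FGF2 early flasks held 152, 149, 147 and 150.2 CPM and FL early flasks 158, 207, 194 and 164 CPM. The order acute, FGF2 early, FL early, parental held without overlap. The difference between FGF2 early and FL early flasks did not pass the test, and was called under 2 alternatives. MT-ND6 stood at −0.71 ± 0.09 in early against parental libraries (adjusted p = 1.58e-04). Its mRNA is known to carry little or no poly(A) tail, whereas the libraries were selected for poly(A), and whether the authors' counting used the strand is not stated. Reads of MT-ND6 and of RNA from the opposite strand therefore cannot be told apart here. Nuclear copies such as MTATP6P1 (a mean of 475 CPM in parental and 341 CPM in acute libraries), MTND2P28 and MTND1P23 resemble MT-ATP6, MT-ND2 and MT-ND1, which adds uncertainty to those genes.

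**Figure D4:**
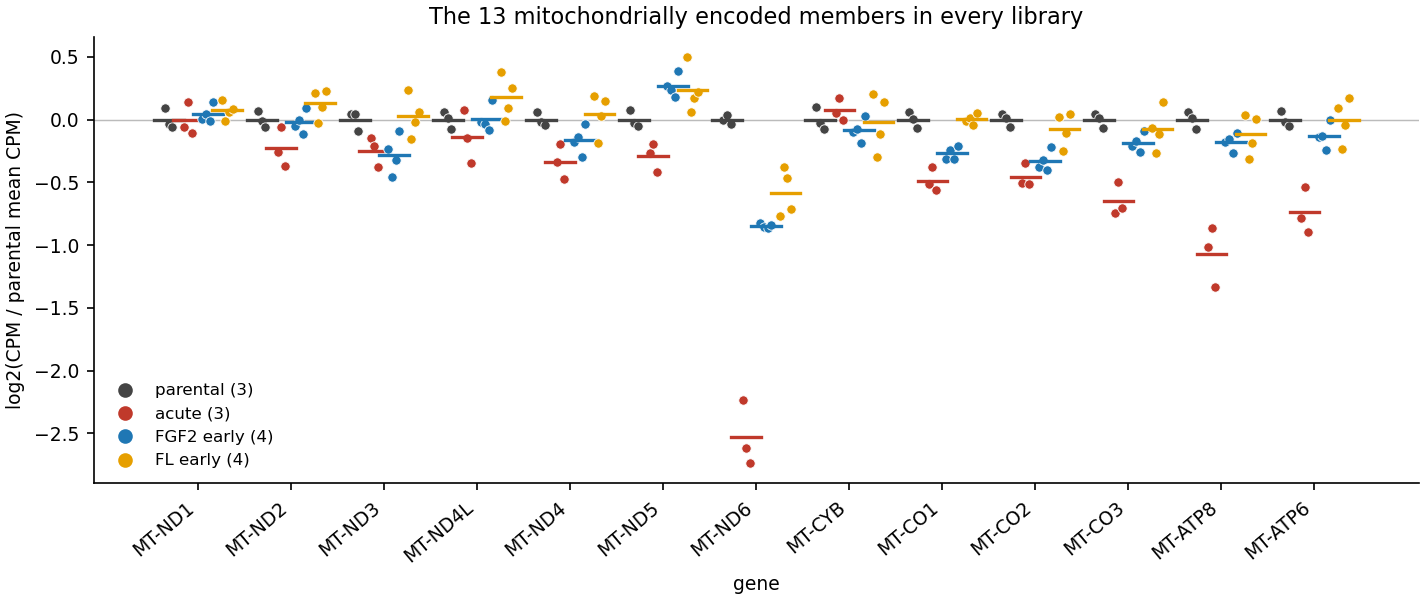
Log2 ratio of CPM to the parental mean for the 13 mitochondrial protein genes in every library, with bars at the mean of each arm. MT-ND6 has the widest gap between parental and acute libraries, MT-ATP6 and MT-ATP8 follow, and MT-ND1 and MT-CYB overlap between those arms.

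Early resistant lines, tested under the same dose of drug, had higher respiratory chain expression than acutely treated cells. This comparison shares its acute libraries with the one above. Of the 91 nuclear members 54 were higher and 6 lower, and of the 13 mitochondrial genes 10 passed the test, all higher. Over all genes tested, 32.1% were called higher and 33.9% lower. Medians were 0.41 for nuclear and 0.28 for mitochondrial members, against −0.04 for all genes. With upper quartile scaling the counts were 50 higher and 14 lower for the nuclear and 6 higher and 1 lower for the mitochondrial members.

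By complex, 17 of 37 nuclear complex I subunits, 7 of 8 assembly factors, all 4 SDH genes, 5 of 9 complex III, 9 of 14 complex IV and 11 of 18 complex V members were higher, and so was CYCS (1.73 ± 0.10). The largest difference was that of NDUFA4L2 (2.59 ± 0.34), which at 7.80 to 12.5 CPM in FGF2 early and 5.42 to 12.2 CPM in FL early flasks lay above every acute library. ATP5MC1 (1.70 ± 0.12), ATP5MK (1.46 ± 0.09), NDUFAF4 (1.54 ± 0.08), NDUFAB1 (1.12 ± 0.14), NDUFA9 (0.99 ± 0.09), UQCRQ (0.99 ± 0.08) and COX7B (0.93 ± 0.08) had some of the largest differences. ATP5MF, another small membrane subunit of ATP synthase, rose by 0.84 ± 0.08. Of the mitochondrial genes, MT-ND6 (1.80 ± 0.11), MT-ATP8 (0.92 ± 0.10), MT-ATP6 (0.67 ± 0.10) and MT-ND5 (0.55 ± 0.09) rose most. Some calls with small differences were not stable. MT-ND2, MT-ND4 and MT-ND4L lost theirs without acute replicate 3 (adjusted p = 0.0543, 0.0880 and 0.274). Over all alternatives the adjusted p of MT-ND2 and MT-ND4 reached 0.211 and 0.124. MT-ND4L also lost its call without acute replicate 2 or either early replicate 4. With the drug-alone library as the acute arm, MT-ND4L stood at 0.05. ATP5F1A lost its call without acute replicate 1 or 3 (at most 0.112) and with upper quartile scaling (0.562).

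The 6 nuclear members lower in early than in acute lines were COX4I1 (−0.43), ATP5MC2 (−0.28), COX7A2L (−0.26), UQCRC2 (−0.26), ATP5F1E (−0.26) and COX6B1 (−0.19). COX7A2L helps complexes III and IV join into supercomplexes, and UQCRC2 is a core protein of complex III. COX6B1 lost its call under 12 alternatives, including the removal of 7 single libraries (FGF2 early replicates 1 and 2, FL early replicates 1, 2 and 3, and acute replicates 2 and 3), and its adjusted p reached 0.825. With the acute library without ligand alone, COX4I1 was still called, and the other 5 were not. UQCRC2 and ATP5F1E were picked after their values were seen.

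Many members showed a graded order over the arms. For 57 of 91 nuclear members (62.6%) the mean was lowest in acute, intermediate in early and highest in parental libraries, as against 26.003% of all genes tested. A strict order, with all acute libraries below all early and all early below all parental ones, held for 19 nuclear members (20.9%) and for 6.95% of all genes, and for MT-ND6 alone among the mitochondrial genes. The 19 were CYCS, NDUFAF2, NDUFAF4, NDUFA6, NDUFB3, NDUFC2, NDUFV2, SDHC, SDHD, CYC1, UQCR10, UQCRQ, COX6C, ATP5F1C, ATP5MC1, ATP5MC3, ATP5MK, ATP5PB and ATP5PF. Complexes III and V contributed 3 of 9 and 6 of 18 members, complex I 4 of 37 and complex IV 1 of 14.

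Against untreated parental cells, the early lines were modestly lower in part of the set. Of the 91 nuclear members 34 were lower and 2 higher, with a median of −0.17, and no called change reached 2-fold. Over all genes tested, 16.1% were lower and 13.7% higher. Without parental replicate 2 the number lower was 19. For complex V 10 of 18 nuclear members were lower, for complex III 5 of 9, for complex II 2 of 4, for complex IV 4 of 14 and for complex I 11 of 37. Among the mitochondrial genes MT-ND6 was lower and MT-ND5 was called higher. MT-CO2 (−0.20 ± 0.07, adjusted p = 0.055) missed the threshold and was called lower under 10 alternatives, among them DESeq2 (adjusted p = 0.0113) and the fits without FGF2 early replicate 4, FL early replicate 1 or FL early replicate 4, with adjusted p of 0.0113 to 0.197 over all alternatives.

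The leading members came from several complexes. In complex I, NDUFA8 changed by −0.60 ± 0.11, NDUFC1 by −0.44 ± 0.08 and NDUFA1 by −0.40 ± 0.06, all of them small accessory subunits. In complex III, UQCRH, the hinge protein next to cytochrome c1, read 199.9, 225 and 252 CPM as the lowest, median and highest of 8 early libraries and 292, 307 and 281 CPM in parental ones (−0.37 ± 0.06, adjusted p = 7.18e-04). In complex IV, COX6C changed by −0.41 ± 0.07 and COX7A2L by −0.35 ± 0.06. In complex V, all 3 subunit c genes were lower: ATP5MC3 (−0.58 ± 0.07), ATP5MC1 (−0.38 ± 0.10) and ATP5MC2 (−0.36 ± 0.07). ATP5F1C, the central shaft of the F1 head, stood at −0.39 ± 0.06 (adjusted p = 3.29e-04), and ATP5MK at −0.39 ± 0.08.

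Several of these calls rest on few libraries. ATP5MC1, SDHC and COX7C each lost the call without parental replicate 1 or without parental replicate 2, with adjusted p of at most 0.0746, 0.114 and 0.142. UQCRQ lost it without parental replicate 2 (adjusted p = 0.0641, against a lowest value of 0.00180 over the alternatives). MT-ND5 (0.26 ± 0.09) lost it without FGF2 early replicate 4 or without any 1 of the parental replicates (adjusted p of 0.0161 to 0.141 over all alternatives).

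Both early lines were set against the same 3 parental libraries, so their fold changes share that control. In FGF2 early flasks 33 nuclear members were lower and 1 higher, with 17.1% of all genes lower and 13.3% higher. In FL early flasks 27 were lower and 1 higher, with 9.76% of all genes lower and 10.9% higher. The FL count was unstable: it was 13 without FL early replicate 1, 11 without parental replicate 1 and 7 without parental replicate 2. The FGF2 count was 22 to 28 when any 1 library was left out, lowest without FGF2 early replicate 1. Nuclear CPM stood at 87.0 ± 2.19% of parental in FGF2 early and 90.4 ± 4.31% in FL early flasks (SD, n = 4 each), and mitochondrial CPM at 89.9 ± 4.71% and 101.1 ± 7.49%. Of the 13 mitochondrial genes, 3 (23.1%) were lower than parental in FGF2 early and 1 (7.69%) in FL early flasks. Of the 3 mitochondrial genes of complex IV, 2 were lower in FGF2 early (median −0.27) and none in FL early flasks (median −0.07).

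The direct comparison of the 2 early lines found few differences in this gene set. Among nuclear members 5 passed the test, all lower in FGF2 early than in FL early flasks, against 9.56% of all genes lower and 4% higher. Without FGF2 early replicate 1, FGF2 early replicate 4 or FL early replicate 3 the number was 3. With FL early replicates 1 and 4 both left out it was 11, of which 3 were among the 5: NDUFA8, ATP5MC3 and ATP5F1C. These 2 flasks were left out together because an earlier analysis of the series had placed them away from the other FL flasks.

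NDUFA8, an accessory subunit of complex I on the intermembrane side, differed most. It read 20.5, 21.8, 21.8 and 24.04 CPM in FGF2 early and 33.8, 35.8, 39.5 and 25.4 CPM in FL early flasks, beside 41.2, 40.8 and 42.03 CPM in parental and 23.8, 28.9 and 24.8 CPM in acute libraries. The FL early flask with the lowest value, replicate 4, still lay above all FGF2 early flasks. The difference was −0.61 ± 0.12 (adjusted p = 0.00377), and NDUFA8 stood at −0.91 in FGF2 early and −0.30 in FL early flasks relative to parental cells.

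The ATP synthase genes ATP5MC3 and ATP5F1C followed the same pattern. ATP5MC3 read 131, 137, 139 and 133 CPM in FGF2 early and 178, 186, 199 and 158 CPM in FL early flasks (−0.42 ± 0.08, adjusted p = 0.00414), and ATP5F1C read 117, 124, 122 and 122 and 139, 155, 160.1 and 142 CPM (−0.30 ± 0.06, adjusted p = 0.00609). In both genes all FGF2 early flasks were below all FL early flasks. ATP5MC1 and ATP5MC2 did not pass the test (0.04 ± 0.11 and −0.01 ± 0.07).

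NDUFB10 (−0.32 ± 0.09, adjusted p = 0.0355) and NDUFA4 (−0.28 ± 0.08, adjusted p = 0.0344) were the other 2 nuclear calls. NDUFB10 was not called without FGF2 early replicate 1, 3 or 4 or FL early replicate 1 or 3 (adjusted p of at most 0.109). NDUFA4 was not called without FGF2 early replicate 1, 2 or 4 or FL early replicate 1, 2 or 3 (at most 0.101). With the replicate number as a block, the adjusted p of NDUFA4 was 0.110. Of the mitochondrial genes, 3 were lower in FGF2 early flasks. MT-CO1, the catalytic core of complex IV, read 10723, 11261, 10703 and 11523 CPM there and 13185, 13464, 12942 and 13828 CPM in FL early flasks, which did not overlap (−0.27 ± 0.06, adjusted p = 0.0119). MT-CO2 (−0.26 ± 0.08) and MT-ND3 (−0.31 ± 0.09) overlapped between the arms. Each lost its call without FGF2 early replicate 1, 2 or 3 or FL early replicate 1, 3 or 4 (adjusted p of at most 0.109 and 0.117). With FL early replicates 1 and 4 both left out, the adjusted p was 0.236 for MT-CO2 and 0.217 for MT-ND3.

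Within the acute arm each ligand state had a single library, so no test was possible. The library with gilteritinib alone was the lowest of the 3 for 68 of 91 nuclear members (74.7%), for 1 of 13 mitochondrial genes and for 42.3% of all genes. Relative to it, the median nuclear member was higher by 0.21 with FGF2 and by 0.13 with FL, and the median mitochondrial gene by 0.15 and −0.12, as log2 CPM with a pseudocount of 0.5. ATP5MC1, for example, read 25.7, 41.03 and 39.6 CPM with drug alone, with FGF2 and with FL. In NDUFS1 the drug-alone library was instead the highest of the 3 (86.6, 77.5 and 71.4 CPM).

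Per transcript length, every mitochondrial mRNA but MT-ND6 was above every nuclear one. In parental libraries they ranged from 512 CPM per kb for MT-ND6 to 9693 for MT-CO3. The nuclear members that were tested ranged from 0.195 for COX6B2 to 824 CPM per kb for ATP5F1B, with a median of 90.8. Among paralogues, the widely expressed forms carried nearly all of the signal. COX4I1 stood at 585 CPM per kb, while its hypoxia-linked partner COX4I2 had no count in any of the 14 libraries, like the muscle forms COX6A2 and COX7A1. COX6B1 stood at 434 CPM per kb in parental libraries and the testis form COX6B2 at 0.195. COX7B2 and COX8C reached at most 0.0333 and 0.361 CPM in any library, and UQCRHL, an intronless copy of UQCRH, at most 0.918 CPM. NDUFA4 stood at 49.9 and NDUFA4L2 at 5.10 CPM per kb.

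Members varied less between libraries of an arm than genes at large. The median coefficient of variation of nuclear members was 4.98% in FGF2 early, 8.09% in FL early, 4.62% in parental and 9.20% in acute libraries. Over all genes tested it was 9.63%, 14.8%, 8.56% and 13.7%, but members are also more abundant, and abundance lowers this measure.

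The 3 members with the most GC-rich transcripts are described together. ATP5F1D (68.5% GC), the delta subunit of the F1 head, NDUFS7 (66.6%), a core subunit of complex I, and NDUFB7 (65.0%), an accessory one, were high in the same parental library. NDUFS7 read 41.8, 45.9 and 78.7 CPM in parental replicates 1 to 3, ATP5F1D 64.7, 69.5 and 107 CPM and NDUFB7 52.3, 58.6 and 87.7 CPM, so that replicate 3 stood above both others in each gene. In acute libraries the same genes read 79.2, 90.99 and 105, 71.3, 98.6 and 116 and 58.7, 83.4 and 91.8 CPM. These genes were picked for their GC content after their values were seen.

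NDUFS7 and ATP5F1D were the 2 nuclear members called higher in early than in parental libraries, by 0.81 ± 0.20 (adjusted p = 0.00905) and 0.58 ± 0.20 (adjusted p = 0.0408). Without parental replicate 1 or 2 the NDUFS7 call was lost (adjusted p = 0.0645 and 0.0632, with a lowest value of 3.33e-04 over all alternatives), and so was that of ATP5F1D (0.194 and 0.176), which was also lost without FGF2 early replicate 1 or 2 or FL early replicate 1 or 4. Without parental replicate 3, the library that stood apart, the values were larger: 1.14 for NDUFS7 (adjusted p = 0.00142), 0.84 for ATP5F1D (adjusted p = 0.0129) and 0.70 for NDUFB7 (adjusted p = 0.0167), which with all libraries stood at 0.45 (adjusted p = 0.0766). With offsets that remove each library's trend of expression with GC content, NDUFS7 stood at 0.39 (adjusted p = 0.0119) and ATP5F1D at 0.04 (adjusted p = 0.657). For acute against parental, NDUFS7 (0.72 ± 0.23, adjusted p = 0.0148) lost its call without parental replicate 1 or 2 or acute replicate 3 (adjusted p of 0.0597 to 0.0754), and stood at 1.06 (adjusted p = 7.62e-04) without parental replicate 3. With the GC offsets it stood at 0.03 (adjusted p = 0.838), while NDUFB7 turned from 0.24 to −0.38 and ATP5F1D from 0.25 to −0.59. Across the 91 nuclear members, transcript GC content and the log2 fold change had a Spearman correlation of 0.36 for acute and 0.37 for early against parental, and across 13015 genes 0.28 and 0.23. These points share libraries and depth, and the part of GC content in the differences was not tested beyond the offsets.

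**Figure D5:**
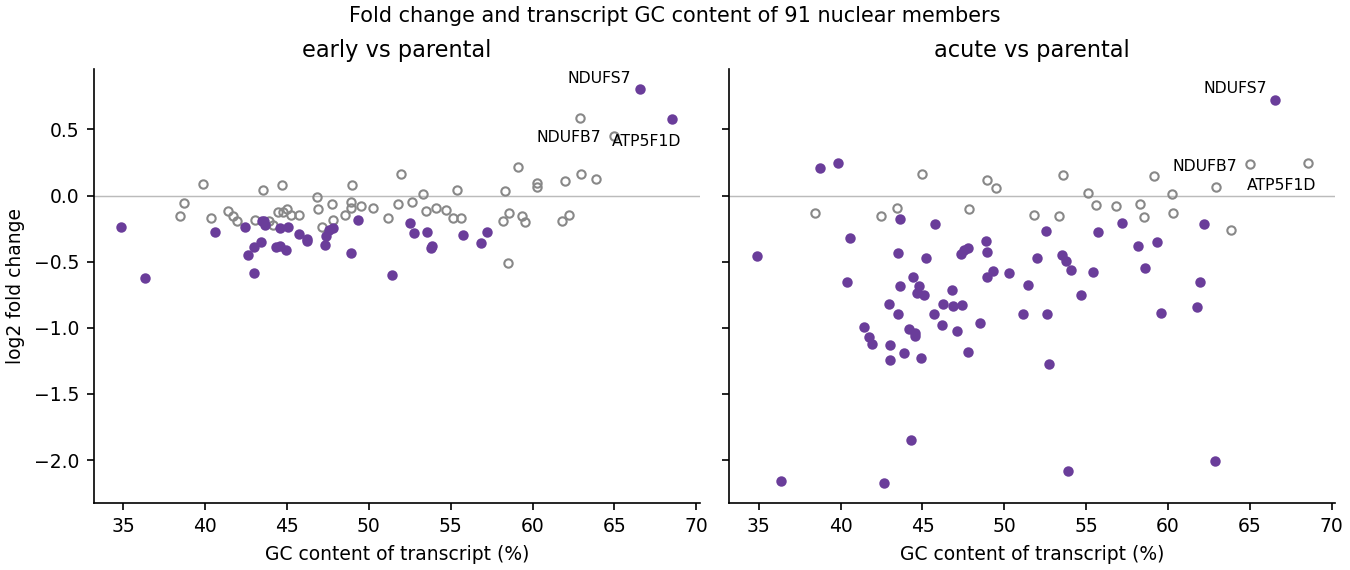
Log2 fold change of the 91 tested nuclear members against the GC content of their transcripts (percent), for early against parental (left) and acute against parental libraries (right). Filled points have an adjusted p under 0.05. ATP5F1D, NDUFS7 and NDUFB7, the 3 nuclear members with the highest GC content, lie above 0 in both panels.

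Genes that serve the chain without belonging to it were followed in lists. Of 11 complex I assembly factors outside the NDUFAF names, 9 passed the test in acute against parental libraries, all lower (median −0.59). TMEM126B, which joins membrane modules of complex I, went from 35.8, 37.3 and 32.6 to 13.2, 11.2 and 12.7 CPM (−1.51 ± 0.09). Of 36 assembly factors of complexes II to V, 20 were lower and 4 higher (median −0.40), beside 30.3% and 32.3% of all genes. Those lower included COX15, a heme a synthase (−1.002 ± 0.06), TMEM70, needed for ATP synthase assembly (−1.34 ± 0.09), and UQCC2 of complex III (−1.31 ± 0.10). Against acute libraries, early lines had 9 of 11 and 18 of 36 higher, with 3 lower in the second list. Of all genes, 32.1% were higher and 33.9% lower there. Against parental libraries the early lines had 3 (27.3%) and 8 (22.2%) lower, with 1 higher in the second list. Of all genes, 16.1% were lower and 13.7% higher in that comparison.

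The machinery that copies and reads mitochondrial DNA moved in the same direction. Of 32 tested genes, 24 were lower and 5 higher in acute than in parental libraries (median −0.81), beside 30.3% and 32.3% of all genes. In early against acute libraries 23 were higher and 5 lower, beside 32.1% and 33.9% of all genes. In early against parental libraries 11 were lower and 1 higher, beside 16.1% and 13.7% of all genes. TFAM, the packaging and transcription factor of mitochondrial DNA, read 158, 144 and 134 CPM in parental and 28.99, 42.9 and 37.7 CPM in acute libraries (−1.99 ± 0.13, adjusted p = 8.60e-09), with early lines at 104 to 107 CPM (FGF2) and 105 to 129 CPM (FL). SLIRP (−2.11 ± 0.12) and PNPT1 (−1.91 ± 0.11), which stabilise and degrade mitochondrial RNA, were also lower, and LRPPRC, the partner of SLIRP, was higher in early than in acute libraries by 1.43 ± 0.08. The mitochondrial RNAs named earlier were read from the same libraries, and no link between them and these genes was tested.

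Of 13 tested regulators of respiratory genes, 5 were lower (38.5%) and 2 higher (15.4%) in acute than in parental libraries, beside 30.3% and 32.3% of all genes. GABPB1, the partner of GABPA in the factor that binds CCGGAAG, was lower (−1.22 ± 0.09), YY1 was lower (−0.72 ± 0.08), and SIRT3, a mitochondrial deacetylase, rose from 7.52, 8.90 and 6.98 to 26.6, 24.1 and 24.9 CPM (1.69 ± 0.18). NRF1, which binds GCGCANGC, was lower in early than in parental libraries (−0.34 ± 0.07). PPARGC1A, which encodes the coactivator PGC-1 alpha, was barely expressed, at 0.515, 1.99 and 0.540 CPM in parental libraries and at most 0.0300 CPM in FGF2 early flasks. PPARGC1B was higher in FGF2 early than in FL early flasks, at 53.3 to 60.2 against 40.2 to 46.4 CPM (0.42 ± 0.08, adjusted p = 0.00379).

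Of 20 genes of the citric acid cycle and pyruvate entry, 17 passed the test in acute against parental libraries, all lower (median −0.53). In early against acute libraries 17 were higher and 1 lower, and in early against parental libraries 7 passed, all lower. Of all genes, 30.3% were lower in the first comparison, 32.1% higher and 33.9% lower in the second, and 16.1% lower in the third. Fumarase, FH, which acts after complex II in the cycle, read 147, 145 and 134 CPM in parental and 47.9, 52.7 and 49.4 CPM in acute libraries (−1.51 ± 0.07). IDH2 (−1.35 ± 0.07) and DLAT of pyruvate dehydrogenase (−1.92 ± 0.14) were lower too. FH and IDH3A were also lower in FGF2 early than in FL early flasks (−0.39 ± 0.06 and −0.60 ± 0.09), at 26.8 to 30.4 against 39.4 to 48.2 CPM for IDH3A. Of 4 tested inhibitors and supercomplex factors, HIGD1A was lower (−1.62 ± 0.09) and HIGD2A (0.50 ± 0.08) and the ATP synthase inhibitor ATP5IF1 (0.42 ± 0.11) were higher in acute libraries. The fourth, STMP1, was lower too (−0.24 ± 0.10).

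Genes of S phase and mitosis moved with the respiratory genes, and further. All 18 were lower in acute than in parental libraries, with a median of −3.62, and all 18 higher in early than in acute libraries, with a median of 3.29. Of all genes, 30.3% were lower in the first comparison and 32.1% higher in the second. Summed, the 18 genes held 4834 to 5000.2 CPM in parental, 489 to 566 CPM in acute, 3816 to 4179 CPM in FGF2 early and 3647 to 4172 CPM in FL early libraries. CDK1, which drives entry into mitosis, read 162, 174 and 152 CPM in parental and 8.10, 6.91 and 6.43 CPM in acute libraries. In early against parental libraries 13 of 18 passed the test, all lower, with a median of −0.34, beside 16.1% of all genes lower. The sums of both early arms overlapped. Most myeloid genes moved the other way in acute cells, with 6 of 10 higher and 2 lower, beside 32.3% and 30.3% of all genes. Both lower ones fell at least 2-fold, the lowest value being −3.79. The summed CPM was 1691 to 2012 in acute, 981 to 984 in parental, 890 to 961 in FGF2 early and 1515 to 2264 in FL early libraries. In FGF2 early against parental libraries 4 of the 10 were higher and 1 lower (median 0.15), beside 13.3% and 17.1% of all genes, although the sum was lower. The part of proliferation and of myeloid state in the respiratory differences was not tested.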

How the data were processed

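Poly(A)-selected, stranded libraries of 14 MOLM14 samples were sequenced by the authors, per the labels' protocols. The deposited table holds estimated counts per gene from kallisto, with GRCh37 named, per the submitters' processing notes. How transcripts were summed to genes, and whether counting used the strand, is not given in the sources used here. Symbols came from GENCODE 29 and from a second list of current gene names, and 85.15% of identifiers had a symbol. A protein-coding gene was a member if either name fitted the rule.

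Expected counts were rounded and fitted with edgeR 4.0.16 (TMM scaling, low counts filtered at a minimum count of 10 and a total of 15, robust quasi-likelihood test, Benjamini-Hochberg adjustment over all genes tested, threshold 0.05), with 14 libraries and 4 arms in 1 fit. The fit was also run on counts simulated from its own dispersion estimates, with only a few genes changed. That run could not test the scaling in these data, where far more genes differed. Alternatives used DESeq2 1.42.0, limma 3.58.1, other scalings and filters, a replicate block, single libraries left out, and offsets for GC content, which were chosen after seeing the data. Standard errors were computed as the absolute log2 fold change divided by the square root of the quasi-likelihood F statistic. R 4.3.3 and Python 3.11.15 were used.

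The members and lists were chosen with earlier results of these data known. Genes were named by a rule: per complex and comparison, up to 3 with the largest change among those past the threshold whose arms did not overlap and whose average log2 CPM reached 3, besides all mitochondrial and SDH genes, CYC1, CYCS and paralogue sets, and the smallest adjusted p in other lists. Others are said to be chosen after their values were seen. The depth of 25723575 to 33075041 counts limits precision for low genes.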

Additional observations from a re-analysis of the deposited data

Results flagged for a closer look

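In each arm of 4 libraries, a single library far from the other 3 was sought by Dixon's ratio at its usual critical value, which chance passes in about 5% of groups. Among 120 groups examined, 3 were found, all in FL early flasks. NDUFAB1 read 81.5 CPM in FL early replicate 4, with the lowest flask at 63.5 CPM. COX6B2 read 0.274 CPM in the same flask, where so low a level rests on few counts. ATP5F1A read 670.9 CPM in FL early replicate 1, the lowest of the 4, against a highest value of 709 CPM.

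The direct comparison of the early arms gave 8 members with a difference, all lower in FGF2 early than in FL early flasks (edgeR's quasi-likelihood test, Benjamini-Hochberg adjusted). That is 7.69% of 104 tested members, beside 9.56% of all genes lower and 4% higher, so the share of members is no larger than that of genes at large. They were NDUFA8 (−0.61 on the log2 scale), ATP5MC3 (−0.42), NDUFB10 (−0.32), MT-ND3 (−0.31), ATP5F1C (−0.30), NDUFA4 (−0.28), MT-CO1 (−0.27) and MT-CO2 (−0.26). The summed myeloid markers and the spread between flasks also differed between these arms, and their part in the differences was not tested.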

How the results depend on the processing

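Of 144 recomputed counts of members, 131 stayed within 1.5 times the reported count. Nuclear members lower in early than in parental libraries numbered 19 to 40 with 1 library left out. Those lower in FL early than in parental libraries numbered 16 with only the arms compared in the fit, 10 without FL early replicates 1 and 4, and 7 to 27 with 1 library left out. Nuclear members that differed between the early arms numbered 9 with DESeq2, 11 without FL early replicates 1 and 4, and 3 to 7 with 1 library left out. Mitochondrial genes higher in early than in acute libraries numbered 6 with upper quartile scaling, and 7 to 10 with 1 library left out. That scaling moved the median of all genes from 0.07 to 0.18 for acute against parental and from −0.04 to −0.16 for early against acute libraries. For acute against parental libraries it gave 57 nuclear members lower and 5 higher (median −0.44), and 6 mitochondrial genes lower. Of 3661 recomputed values of named members, 133 lost their call and 59 gained one, and 2 turned direction, NDUFB7 (−0.38) and ATP5F1D (−0.59) in acute against parental libraries with GC offsets. The causes were not tested.

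Equal replicate numbers did not pair the libraries: deviations from the arm means correlated between −0.094 and 0.066 for equal numbers. With the replicate number as a block, nuclear members lower than parental numbered 39 in early, 36 in FGF2 early and 28 in FL early libraries, and 2 differed between the early arms, ATP5MC3 and ATP5F1C. NDUFA8 (adjusted p = 0.0638) and MT-CO1 (adjusted p = 0.0682) lost their calls under the block.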
